A study of Mus musculus with 12 samples.

Results

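The genes described here encode growth hormone receptor and 8 other cytokine receptor chains, and were taken as every spot whose single gene symbol was Ghr, Prlr, Csf2rb, Csf2rb2, Il3ra, Il2rg, Il4ra, Il6st or Il7r. Of these 9 genes, 5 had a spot (Ghr, Csf2rb2, Il3ra, Il6st and Il7r), with 6 spots in all among 22138 non-control spots. Prlr, Csf2rb, Il2rg and Il4ra had no spot under their symbol and were not analysed here. Of the 6 spots, 4 had a value on every array and entered the fit, while 1 of the 2 Il6st spots and the Il7r spot had a value on 3 of 12 arrays. Total RNA from mouse samples was labelled with Cy3 and hybridised to spotted arrays against embryonic RNA labelled with Cy5. The sample titles gave a form, WT or NLS, and a number, 0GH or 1GH, and so 4 groups of 3 arrays each. NLS commonly stands for a nuclear localization signal and the series is named for a nuclear growth hormone receptor, but the labels do not spell the letters out. They describe a time course and give no unit for the number before GH, and they leave a 10 in every title unexplained. All 12 samples carried a treatment entry of human growth hormone at 100 ng/ml, so no group is called untreated here. The labels named no strain, tissue, cell type or age, and no allele, vector or promoter, and did not say whether replicate letters b, c and d were separate cultures. The p-values therefore measure the spread between these samples, which may be technical.

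Cytokine receptors of this family have no kinase of their own. Ligand binding brings receptor chains together, which activates the Janus kinases (JAK) bound to their intracellular parts, and these phosphorylate the receptor and the STAT transcription factors. Growth hormone receptor works as a pair of identical chains with JAK2 and signals strongly through STAT5. Most other members share a chain. Csf2rb2 is a mouse beta chain that serves interleukin 3 together with the alpha chain Il3ra, while the product of its neighbouring gene Csf2rb is the beta chain common to interleukin 3, interleukin 5 and GM-CSF. Il6st encodes gp130, the chain shared by interleukin 6, LIF and oncostatin M. Il7r pairs with the common gamma chain, encoded by Il2rg, to bind interleukin 7.

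All values below are log2 ratios of sample over embryonic reference, minus the median of the array, so that 0 stands for the median spot and not for equal amounts of RNA. They describe a ratio to the reference and not an abundance. Neither the table nor the labels name the numerator. When deposited values above 0 were taken to mean more signal in the embryonic channel, 37 of 44 genes known from embryo tissues fell below 0 (median -4.52), with 79.4% to 94.6% of those measured doing so on single arrays. That reading is likely, and all signs follow it. The opposite reading would turn every sign below. An array gave values for 15678 to 19376 of the non-control spots, and having only 12 arrays sets how precise the means are. In RNA from whole samples, fewer cells of a type and less RNA per cell cannot be told apart. No cell type was labelled to be checked. Of 10 B lymphoid marker genes measured on all arrays, 7 lay above the median, against 2 of 3 T lymphoid, 3 of 7 myeloid, 2 of 5 mast cell and basophil, 3 of 5 erythroid and megakaryocyte, 2 of 5 epithelial, 0 of 8 hepatocyte and 0 of 10 fibroblast genes, and the last 2 lists share genes with the embryo-tissue list. The highest list median was that of the erythroid and megakaryocyte genes, at 0.98, against 0.44 for the B lymphoid genes. Of all 11245 spots with a value on all 12 arrays, 39.2% had a mean below the array median, and the median of their means was 0.27. The counts above are to be read against that share, and they name no cell type. The mean level of each of these lists overlapped among the 4 groups.

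Csf2rb2, the interleukin 3 receptor beta chain, had a high ratio on every array, while Ghr, Il3ra and one spot of Il6st lay near the median. The ratio of Csf2rb2 was 3.56, 3.87 and 4.12 on the WT 0GH arrays of letters b, c and d, 2.53, 4.20 and 3.91 on those of WT 1GH, 3.08, 3.88 and 3.65 with NLS at 0GH, and 4.07, 3.67 and 3.57 with NLS at 1GH. All 12 values were far above the median, and the 2 lowest both came from letter b. The mean of 3.68 (SD 0.47, n = 12) corresponds to 12.8 times the median ratio, and each value lay between the 86.7th and the 99.5th percentile of the spots on its array. Averaged over the arrays, 99.5% of the 11245 spots with a value on all 12 arrays had a lower ratio. In limma, the mean of the 4 groups differed from the array median with a 95% interval of 3.26 to 4.10 and an adjusted p of 1.55e-06. The reference was 1 RNA without replicates and the dyes were the same on all arrays per the labels, so this test leaves out the spread of the reference, and any dye effect cannot be told apart from the level. The probe sequence was not used here, so signal from the closely related transcript of Csf2rb cannot be told apart from that of Csf2rb2.

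Il3ra, the alpha chain that binds interleukin 3, had a ratio slightly above the median. Its values were 0.48, 0.85 and 0.35 on the WT 0GH arrays, 0.40, 1.37 and 1.41 on those of WT 1GH, 1.59, 0.94 and -0.38 with NLS at 0GH, and 0.80, 0.39 and -0.68 with NLS at 1GH. All 6 WT arrays and 4 of 6 NLS arrays lay above the median, and the 2 arrays below it were the NLS arrays of letter d. The mean was 0.63 (SD 0.69, n = 12), with a limma 95% interval of 0.13 to 1.12 and an adjusted p of 0.0427. That interval includes 0.27, the median over the 11245 spots with a value on all 12 arrays. Of those spots, 64.8% had a lower ratio. The adjusted p ranged from 0.0158 to 0.290 over 15 fits that each left out an array or a letter, and the call was lost in 11 of them, as it was without centring (adjusted p = 0.0505). Among all spots tested, 24.6% were called higher than the median and 19.8% lower, so the count of 2 receptor spots called higher, Csf2rb2 and Il3ra, of 4 tested is to be read against a common outcome.

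Ghr, the growth hormone receptor, did not pass this test against the median. Its ratio was -0.57, -0.37 and 0.89 on the WT 0GH arrays, 0.16, -0.70 and -0.05 on those of WT 1GH, 0.40, -0.35 and 2.69 with NLS at 0GH, and 2.10, 0.94 and -0.12 with NLS at 1GH. The 2 highest values were both from NLS arrays, of different letters and different GH numbers. The mean was 0.42 (SD 1.07, n = 12), with a 95% interval of -0.25 to 1.09 and an adjusted p of 0.282 in limma. Of the 11245 spots with a value on all 12 arrays, 56.2% had a lower ratio. The mean of Ghr was 0.19 without the NLS 0GH array of letter d, 0.28 without the NLS 1GH array of letter b and 0.69 without letter c. The labels do not give the species of the introduced receptor, if there was one, nor whether the spot would detect its transcript, so the value of Ghr is not a check of the WT and NLS labels.

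Il6st was represented by 2 spots that disagreed. The spot annotated with the cDNA AK017211 lay near the median, at 0.05, 0.46 and -0.59 on the WT 0GH arrays, -0.03, 0.52 and 0.92 on those of WT 1GH, -0.20, 0.11 and -0.48 with NLS at 0GH, and -0.23, 0.33 and 0.34 with NLS at 1GH. Its mean was 0.10 (SD 0.44, n = 12), with a 95% interval of -0.28 to 0.48 and an adjusted p of 0.649 in limma. Of the 11245 spots with a value on all 12 arrays, 43.4% had a lower ratio. The spot annotated with the RefSeq transcript NM_010560 had a value on 3 arrays only, at -7.03 on WT 0GH b, -10.34 on WT 0GH c and -6.02 on NLS 1GH d. These lie far on the reference side, and how exact so large a ratio is cannot be told from the deposited values. Blank spots also gave values, 7.85% to 19.5% of them on a given array, so having a value does not by itself show signal from a transcript. On the 3 arrays where both spots had a value they differed by 6.36 to 10.8 log2 units. Values below for Il6st are those of the first spot.

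Il7r, the alpha chain of the interleukin 7 receptor, had a value on 3 of 12 arrays, at -4.39 on WT 0GH d, -7.08 on WT 1GH c and -0.77 on WT 1GH d. All 3 were WT arrays, so 3 of 6 WT arrays and 0 of 6 NLS arrays gave a value. With 3 values in all, this is the most uneven split possible, and Fisher's exact test gives it a two-sided p of 0.182, so no split could pass the threshold of 0.05. Of 614 spots with exactly 3 values, 10.1% had all of them on WT arrays and 8.63% had all on NLS arrays, and 92.3% had a mean below the array median. A low ratio in a spot with few values is therefore the usual case on these arrays, and no group mean was formed for this gene.

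**Figure D1:**
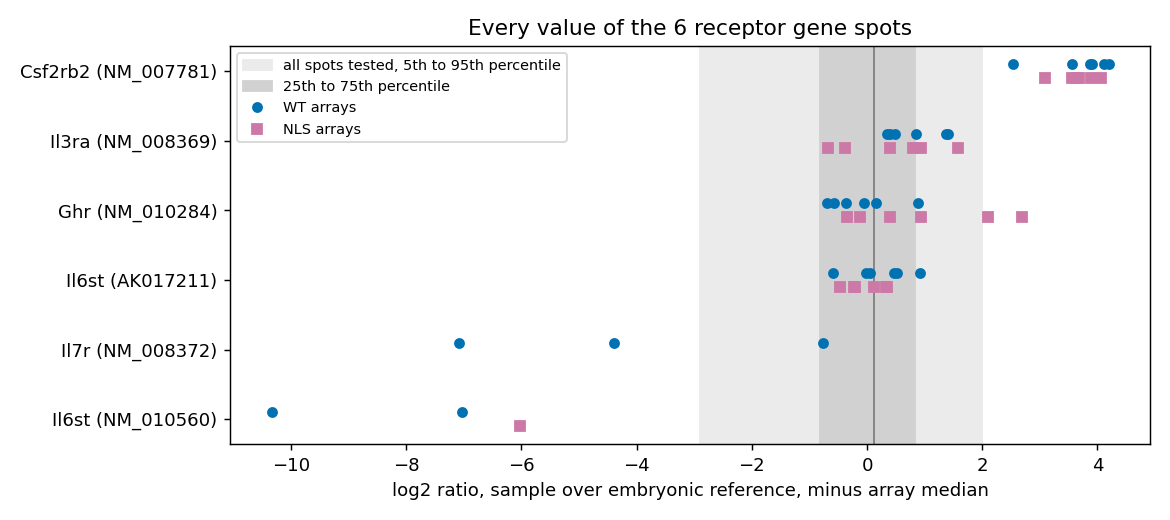
Log2 ratio of sample over embryonic reference, minus the median of the array, for every value of the 6 receptor gene spots (circles: WT arrays, squares: NLS arrays; 12 values for the upper 4 spots, 3 for the lower 2). Light shading runs from the 5th to the 95th percentile of the mean ratios of all 16063 spots tested (-2.91 to 2.0) and dark shading from the 25th to the 75th (-0.81 to 0.84). The 12 values of Csf2rb2, from 2.53 to 4.20, lie to the right of the light band, and 5 of the 6 values of Il7r and the second Il6st spot lie to its left. The bands are of means over arrays, whereas the points are values on single arrays. Among the spots on their own arrays, the Csf2rb2 values lay between the 86.7th and the 99.5th percentile.

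The 4 groups were compared to ask whether transcripts of these receptors differed with the receptor form or the GH number. None of the 4 spots in the fit passed the test. The F test of limma gave F = 1.02 for Ghr, 0.17 for Csf2rb2, 0.69 for Il3ra and 0.69 for Il6st, each with an adjusted p of 1.0. Of all 16063 spots, 0% passed this test after adjustment, 3.8% had an unadjusted p under 0.05, and none of the 4 spots was among them. Ghr averaged -0.02 ± 0.79 at 0GH and -0.20 ± 0.45 at 1GH on WT arrays, and 0.91 ± 1.58 at 0GH and 0.97 ± 1.11 at 1GH on NLS arrays (mean ± SD, n = 3 each). Csf2rb2 ran from 3.54 ± 0.41 in NLS 0GH to 3.85 ± 0.28 in WT 0GH, Il3ra from 0.17 ± 0.76 in NLS 1GH to 1.06 ± 0.57 in WT 1GH, and Il6st from -0.19 ± 0.29 in NLS 0GH to 0.47 ± 0.48 in WT 1GH. In the order of group means, no gap between neighbouring groups exceeded the larger SD of the pair for any of the 4 genes.

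**Figure D2:**
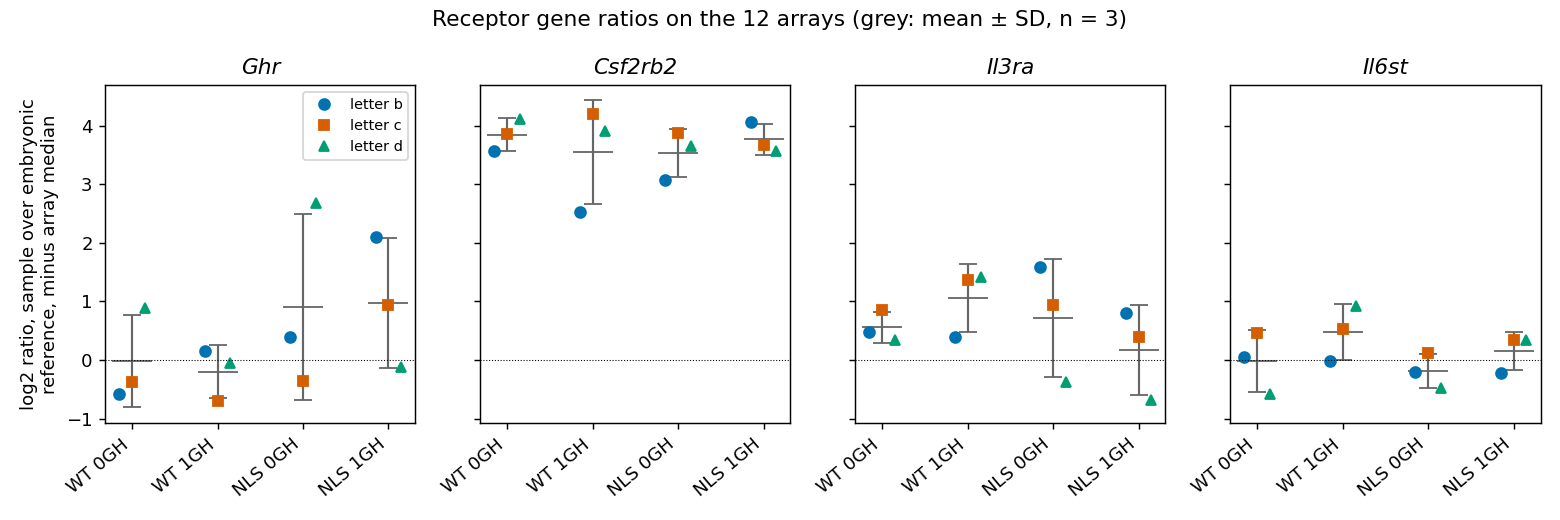
Log2 ratio over the embryonic reference, minus the array median, of the 4 receptor spots with a value on all 12 arrays, by group (3 arrays each; symbols give the letter, grey bars the mean ± SD). Csf2rb2 stays between 2.53 and 4.20 in all groups, and the groups overlap for each gene.

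Ghr showed the largest difference between receptor forms among the 4 spots. Averaged over both GH numbers, it was 1.05 log2 units higher in NLS than in WT arrays (SE 0.61, 95% interval -0.30 to 2.39), which did not pass in limma (adjusted p = 0.922). The 6 WT arrays had a mean of -0.11 (SD 0.58) and the 6 NLS arrays 0.94 (SD 1.22). By letter, the averaged difference came to 1.45, 0.83 and 0.87 (b, c and d). Within a letter and GH number, the NLS array was higher in 5 of 6 pairs, with differences of 0.97, 0.01 and 1.80 at 0GH and of 1.94, 1.64 and -0.07 at 1GH. Of the 6 pairs, 2 therefore differed by less than 0.1 log2 units. The NLS array was higher in 1 of 6 pairs for Il6st, 2 of 6 for Csf2rb2 and 3 of 6 for Il3ra. Il6st was thus as uneven as Ghr, in the other direction. The share of all spots with so uneven a split was not computed. For Ghr, the difference was 0.60 without the NLS 0GH array of letter d and 1.05 with it. Of the spots with 12 values, 83.8% had a smaller difference in either direction. Ghr also varied more than the other 3 genes within groups, with a residual SD of 1.07 against 0.53 for Csf2rb2, 0.70 for Il3ra and 0.42 for Il6st, and a median of 1.01 over the spots with 12 values.

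The interleukin 3 receptor chains did not pass for receptor form. Csf2rb2 was at -0.04 in NLS minus WT (SE 0.38, 95% interval -0.88 to 0.79, adjusted p = 0.996 in limma). Under no centring and under quantile normalization its sign turned, at 0.06 and 0.07. The 6 WT arrays averaged 3.70 (SD 0.61) and the 6 NLS arrays 3.65 (SD 0.33). Il3ra was at -0.37 (SE 0.45, 95% interval -1.36 to 0.62, adjusted p = 0.957). By letter this came to 0.75, -0.44 and -1.41 (b, c and d), so its sign changed between letters. Without letter d it was 0.15 and without letter b -0.93.

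Il6st was at -0.24 in NLS minus WT (SE 0.34, 95% interval -1.0 to 0.51, adjusted p = 0.962 in limma). The averaged difference was -0.23 for letter b, -0.27 for c and -0.23 for d. It ranged from -0.12 without the WT 0GH array of letter c to -0.38 without that of letter d, and was -0.14 without centring. Of all spots, 0% passed for receptor form after adjustment and 5.65% had an unadjusted p under 0.05, with 0 of the 4 receptor spots in either count. In 0.48% of the 11245 spots with 12 values, all NLS arrays lay on one side of all WT arrays, and none of the 4 receptor spots was among these.

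For GH number, 1GH minus 0GH averaged over both forms was -0.06 for Ghr (SE 0.61, 95% interval -1.40 to 1.29), -0.04 for Csf2rb2 (SE 0.38, -0.87 to 0.80), -0.02 for Il3ra (SE 0.45, -1.02 to 0.97) and 0.42 for Il6st (SE 0.34, -0.34 to 1.17). Each had an adjusted p of 0.9998 in limma. Under quantile normalization the first 3 lay at 0.00, 0.18 and 0.13. By letter, Ghr gave 1.22 in b, 0.48 in c and -1.87 in d, so a mean near 0 covered differences of opposite sign, the widest being -2.80 between the NLS arrays of letter d. The value of Il6st rested on letter d, with 1.16 there against -0.05 in b and 0.14 in c, and it was 0.04 without letter d. Of all spots, 0% passed after adjustment and 3.41% had an unadjusted p under 0.05, with none of the 4 receptor spots in either count.

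The interaction asks whether the difference between GH numbers was another in NLS than in WT arrays. It was -1.05 for Il3ra (SE 0.89, 95% interval -3.03 to 0.93), 0.53 for Csf2rb2 (SE 0.76, -1.14 to 2.21), 0.24 for Ghr (SE 1.21, -2.44 to 2.93) and -0.16 for Il6st (SE 0.68, -1.68 to 1.35), each with an adjusted p of 0.9995 in limma. Without centring, the interaction of every spot with 12 values shifts by 0.62, which gave -0.43 for Il3ra, 1.16 for Csf2rb2, 0.86 for Ghr and 0.46 for Il6st. The value of Il3ra was also -0.61 without the NLS 0GH array of letter b, -0.62 without the NLS 1GH array of letter d and -1.60 without the NLS 0GH array of letter d. For Il3ra, 1GH minus 0GH was -0.79, -0.55 and -0.31 in the NLS arrays of b, c and d, and -0.08, 0.51 and 1.07 in the WT arrays, so the NLS value was the lower in each letter. For Csf2rb2 the mean rested on letter b, with an interaction of 2.01 against -0.53 in c and 0.12 in d, and without letter b it was -0.21. Of all spots, 0% passed after adjustment and 3.11% had an unadjusted p under 0.05, and the 4 receptor spots were in neither count.

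**Figure D3:**
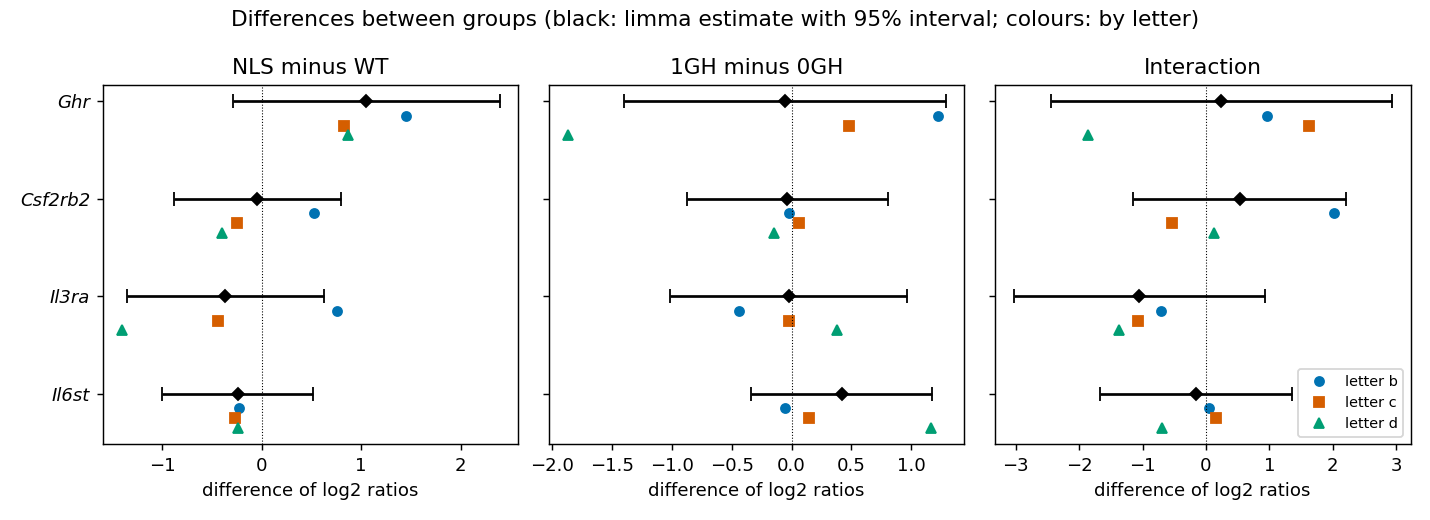
Differences of log2 ratios for the 4 receptor spots: NLS minus WT, 1GH minus 0GH and their interaction. Black diamonds and bars give the limma estimate and its 95% interval over 12 arrays, coloured symbols the difference within each letter. Every interval includes 0, and for Ghr the 3 letters lie at 0.83 to 1.45 for NLS minus WT but on both sides of 0 for the other comparisons.

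The genes whose pattern over the 12 arrays was most like each receptor were looked up among 9190 named spots with 12 values, by Pearson's r of the centred ratios. For Ghr these were Cdip1 (r = 0.91), Lrrc52 (r = 0.89) and Pstk (r = 0.82). The nearest spot was 1700020M21Rik for Csf2rb2 (r = 0.93), Rpl32 for Il3ra (r = 0.97) and Wdr13 for Il6st (r = 0.91). The arrays of a letter share a red dye value in the labels and the 12 arrays share 1 reference RNA, so these likenesses are descriptions and carry no test.

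Partners and relatives of these receptors showed a spread of ratios. Of 31 other cytokine receptor genes listed, 24 had a spot and 21, with 23 spots, were tested. Against the reference, 8 of the 23 spots were called higher and 3 lower, beside 24.6% and 19.8% of all spots tested. Higher were Il9r at 3.35 (SE 0.77), both spots of Il2ra, the interleukin 2 receptor alpha chain, at 2.28 (SE 0.32) and 1.93 (SE 0.35), Crlf2, the partner of Il7r in the TSLP receptor, at 1.24 (SE 0.24), Il21r at 1.23 (SE 0.25), Csf2ra, the alpha chain for GM-CSF, at 1.06 (SE 0.35), and 1 of 2 spots of Il10rb at 1.5 (SE 0.39). Among genes whose products work with gp130, Il6ra, the interleukin 6 receptor, was called higher at 1.0 (SE 0.16), whereas Lifr at -4.18 (SE 0.58) and Cntfr at -2.0 (SE 0.37), the receptors for LIF and CNTF, were called lower. Lepr, the leptin receptor, was called lower at -2.89 (SE 0.58). The median ratio of the 21 genes, with the spots of a gene averaged, was 0.41, against 0.12 over all single spots tested.

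None of these 21 receptor genes passed for receptor form, GH number or interaction (0 of 23 spots in each). In NLS minus WT, 7 genes lay above 0 and 14 below, a split that was not tested. With the spots of a gene averaged their median was -0.24. Over all single spots tested the median also lay below 0, at -0.05. The smallest p-values on either side of 0 belonged to a spot of Il2ra at 1.51 (SE 0.69, adjusted p = 0.880 in limma) and to Epor, the erythropoietin receptor, at -3.89 (SE 1.85, adjusted p = 0.888), and the second Il2ra spot was at 0.06 (SE 0.63).

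**Figure D4:**
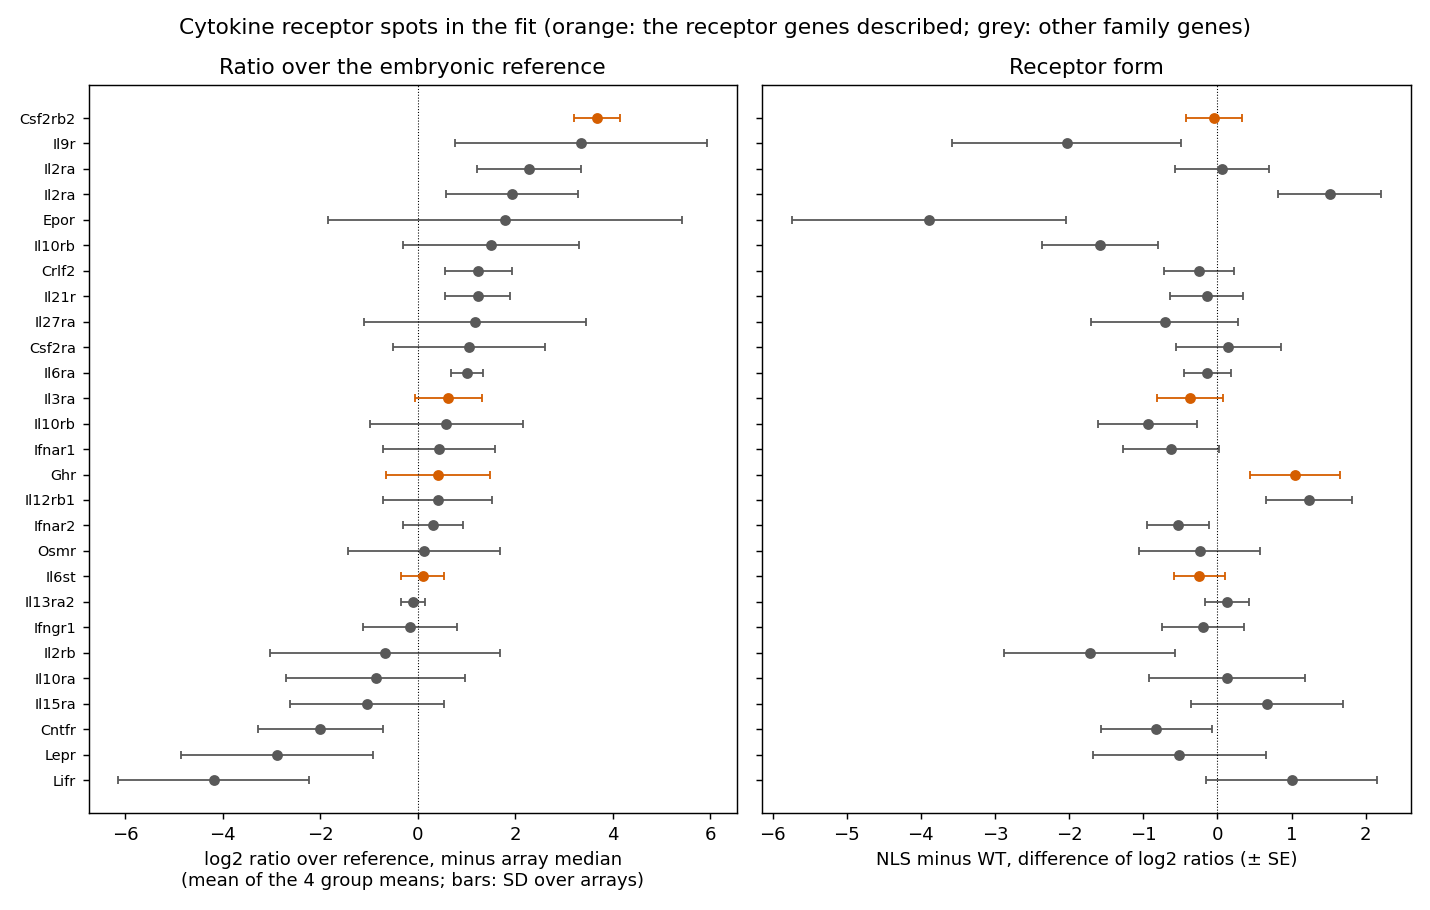
Cytokine receptor spots in the fit, ordered by their log2 ratio over the embryonic reference (left; points: mean of the 4 group means, bars: SD over arrays) with the difference NLS minus WT (right; bars: SE of the limma fit). Csf2rb2 has the highest ratio of the spots shown, at 3.68, and a difference of -0.04, while Ghr has a ratio of 0.42 and a difference of 1.05. Ratios are relative to the reference and are not abundances.

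The ligands and signalling partners were described in the same way. Of 25 ligand genes, 15 were tested, and against the reference 4 of 16 spots were called higher and 3 lower. These shares lie near those over all spots tested (24.6% and 19.8%), so the values that follow describe single genes and show nothing particular to ligands. Igf1, a growth factor induced by growth hormone, lay at -5.17 (SE 0.82), and Csf3, which encodes G-CSF, at -1.75 (SE 0.49). Higher than the median were Il5 at 1.83 (SE 0.46), whose product signals through the common beta chain, and Il6 at 1.81 (SE 0.34) and Il11 at 1.36 (SE 0.27), whose products signal through gp130. The 2 spots of Il15 were called on opposite sides, at 2.0 (SE 0.43) and -1.95 (SE 0.33). Of 41 JAK-STAT signalling genes, 34 were tested, and 19 of 37 spots were called higher and 1 lower, beside 24.6% and 19.8% of all spots tested. Jak2, the kinase bound to growth hormone receptor, lay at 3.75 (SE 0.66), Jak1 at 2.19 (SE 0.26), Jak3, the partner of the common gamma chain, at 1.82 (SE 0.29) and Ptpn6, a phosphatase that restrains cytokine receptors, at 3.01 (SE 0.26). Ptprc, which encodes the leukocyte phosphatase CD45, had the highest ratio of the spots called at 4.23 (SE 0.27). Cish at 2.07 (SE 0.27) and Socs2 at 1.98 (SE 0.27), feedback inhibitors induced by STAT5, were called higher, as were Socs4, Socs5, Socs7, Stat2, Stat3, Stat4, Pias1, Ptpn11, Gab2, Grb2, Shc1 and Myc, between 0.65 and 2.34. Irs2, an adaptor of insulin signalling, was called lower at -1.77 (SE 0.52). The median ratio of the JAK-STAT genes was 0.88. For receptor form, GH number and interaction, 0 spots of either list passed. In NLS minus WT the smallest p-values on either side of 0 belonged to Il2 at 1.64 (SE 1.46, adjusted p = 0.926 in limma) and Igf1 at -3.80 (SE 1.64, adjusted p = 0.876) among ligands, and to Stat4 at 1.90 (SE 0.82, adjusted p = 0.876) and Pias3 at -2.24 (SE 1.13, adjusted p = 0.906) among signalling genes.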

How the data were processed

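The deposited values are read as log2 ratios between the Cy3 and Cy5 channels, with the base inferred from their range. Per the series' design text, the authors fitted a Lowess curve over 50% of the data and set a floor of 200 for the control channel; no scanner, image software or background method is named in the sources used here. Values were multiplied by -1 and the median of the 22138 non-control spots (573 blank, 235 Gapdh and 94 YIR spots left out) was subtracted from each array; these medians ranged from -0.91 to 1.22. Spots with at least 2 values in each group were fitted (16063) in limma 3.58.1 (lmFit, eBayes; R 4.3.3) over the 12 arrays. Tests were two-sided, p-values were adjusted by Benjamini-Hochberg across all fitted spots, and the threshold was 0.05. The fit was also run on simulated data with independent noise on each array and no effect of the letter. That run therefore says nothing about likeness between arrays of a letter. Fisher's exact test used scipy 1.17.1.

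Symbols came from the platform annotation and were matched to RefSeq by Entrez identifier (16014 spots, 0 updated; 142 spots with several symbols and 5276 without one were left unnamed). The receptor genes and gene lists were chosen with earlier results of these data known. The text names every receptor spot, the most alike spots, and from each pathway list the genes called in any comparison and, for receptor form, the gene with the smallest p on each side of 0.

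The labels give 1 incorporation of the red dye for all arrays of letter b (19.3), of c (19.8) and of d (17.9, in base pairs for each dye molecule). They do not say what else the arrays of a letter share. The main fit left the letter out, and the replicate block below takes it in. Deviations from the group means had correlations of 0.0432 to 0.266 for arrays of the same letter and of -0.189 to 0.0637 for arrays of other letters. Alternatives were the replicate block, no centring, quantile normalization, other filters on missing values, averaged spots, a robust trended prior, extreme values left out, and each array and letter left out.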

Additional observations from a re-analysis of the deposited data

How the results depend on the processing

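With the replicate block, no receptor spot gained or lost a call; Ghr in NLS minus WT was 1.05 (SE 0.60, adjusted p = 0.700 in limma), and 928 spots in place of 610 had an unadjusted p under 0.05 in the test of the 4 groups. In the 17 alternatives that change the estimates of the 4 spots (no centring, quantile normalization, arrays or letters left out), 43 of 272 signed values turned sign and 12 lost the call, all 12 for the ratio of Il3ra. The other alternatives leave these estimates as they are. None of the values that turned sign had passed the threshold. Without centring, Csf2rb2 in NLS minus WT was 0.064 and the interaction of Il6st 0.461. Under quantile normalization, Csf2rb2 in NLS minus WT was 0.073, and 1GH minus 0GH was 0.000441 for Ghr, 0.181 for Csf2rb2 and 0.134 for Il3ra. Leaving out arrays or letters gave NLS minus WT of -0.330 to 0.136 for Csf2rb2 and -0.927 to 0.155 for Il3ra. It gave 1GH minus 0GH of -0.696 to 0.849 for Ghr, -0.198 to 0.218 for Csf2rb2 and -0.299 to 0.193 for Il3ra. It gave interactions of -0.447 to 1.30 for Ghr, -0.205 to 1.07 for Csf2rb2 and -0.411 to 0.12 for Il6st, and a ratio of -0.0246 to 0.205 for Il6st. The count of spots called for receptor form was 0 to 1 when arrays or letters were left out and 1 when values beyond 8 log2 units were. That spot was Ms4a6d, at -5.29, named after its value was seen. The count called against the reference fell when arrays or letters were left out, as did the number of spots tested. It was 3144 of 12050 without letter d, 3188 of 11926 without letter c and 6020 of 13401 without letter b. Without a single array it was up to 6681 of 15701, against 7132 of 16063 in the main fit. The cause of these changes was not tested. The ratio of Csf2rb2 stayed between 3.56 and 4.09 in all alternatives. Groups of 3 arrays and spots without a value on some arrays limit what can be seen here. How near a spot lay to the limit of detection cannot be told from the ratios.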

Other observations

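The disagreement between the 2 Il6st spots was set against other genes with exactly 2 spots and at least 3 arrays where both had a value. Over 812 such genes, Il6st among them, the mean difference between the spots had a median size of 1.30 log2 units. For Il6st the mean difference was 8.08, with 6.36 to 10.8 on the 3 arrays shared. In 3 of the 812 genes (0.37%), Il6st included, the mean difference was at least that large. One of the Il6st spots had values on 3 arrays only, and 92.3% of spots with 3 values had a mean below the array median. Genes with such a sparse spot were not set apart, so the share among them is not known. Which of the 2 spots reports the gp130 transcript was not tested.

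By letter, the ratio of Il6st was lowest in b, where the 4 arrays averaged -0.10 (SD 0.14), against 0.36 (SD 0.18) in c and 0.05 (SD 0.71) in d. Csf2rb2 was also lowest in b, at 3.31 (SD 0.66) against 3.90 (SD 0.22) and 3.81 (SD 0.25). Il3ra was lowest in d, at 0.18 (SD 0.93) against 0.82 (SD 0.54) in b and 0.89 (SD 0.40) in c. Ghr was lowest in c, at -0.12 (SD 0.72) against 0.52 (SD 1.13) in b and 0.85 (SD 1.31) in d. These differences between letters were not tested.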
